A study of Mus musculus with 18 samples.

Results

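Circular RNAs (circRNAs) of the nucleus were compared with those of the cytoplasm in wild-type (WT) NIH/3T3, a fibroblast line derived from mouse embryos. The comparison rests on 4 of the 18 libraries of the series, WT_nuc_circ and WT_cyto_circ with 2 replicates each, chosen by their titles. These 4 libraries listed 10158 circRNAs, of 16062 listed in the 10 circRNA-seq libraries used here. The other groups drawn on were the 2 WT whole-cell circRNA libraries and the nuclear and cytoplasmic libraries of XPO4 knockout (KO) cells, 2 each. These KO libraries served for the interaction with genotype and for the overlap of lists. The 6 mRNA-seq libraries of WT and KO cells were used for marker genes and Xpo4 only. The KO cells were made from the same line with CRISPR-Cas9 and carry the same edit in both gene copies, while the WT cells are unedited. How many clones the KO cells stand for is not given. No group received a treatment. All circRNA libraries share RNase R digestion, which removes linear RNA, and depletion of rRNA. The cytoplasm is the supernatant after NP-40 lysis, and the nuclear RNA comes from the detergent-washed pellet. Neither the labels nor the methods say that replicates came from separate cultures, so p-values measure the spread between these libraries.

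A circRNA forms when a downstream splice donor joins an upstream splice acceptor, called backsplicing, which leaves a closed ring that only a read across the backsplice junction can identify. Most animal circRNAs are exonic (ecircRNAs) and are known as cytoplasmic RNAs, although they are made in the nucleus and have to be exported. Rings that keep an intron, or that consist of intron, are known to stay in the nucleus. The question asked here was which circRNAs took a larger share of the nuclear than of the cytoplasmic junction reads.

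The junction sequences of the circRNAs on which the results turn are given first, to show which bases a junction read has to join. They were read from the GRCm38 genome 5′ to 3′ on the strand of the circle. In the first 4, the last 15 bases before the junction are in lower case and the first 15 bases after it in capitals.
circSh3rf3, exons 2 to 3, chr10:58983921-59007137, plus strand: ctcctgtacgtggagACTCTATCCCAGCTT
circHipk3, exon 2, chr2:104470749-104471847, minus strand: atctcgctactacagGTATGGCCTCACAAG
circDtnb, exons 5 to 8, chr12:3617606-3648389, plus strand: gagcattcctcttggTGAGGGCCGAGGCAA
circle in a Csmd3 intron, chr15:48281931-48282149, plus strand: gccttatgttgcaggGAAAAAATAAAACTG
The circRNA with most nuclear reads, circFgfr1, is exon 3 of its gene alone, 267 nt of coding sequence at chr8:25555508-25555774 on the plus strand. It is shown whole, as is circTcf25, 194 nt from exons 3 and 4 at chr8:123382527-123383443 on the plus strand. In both, the capitals at the 2 ends mark the 15 bases on each side of the junction.
circFgfr1: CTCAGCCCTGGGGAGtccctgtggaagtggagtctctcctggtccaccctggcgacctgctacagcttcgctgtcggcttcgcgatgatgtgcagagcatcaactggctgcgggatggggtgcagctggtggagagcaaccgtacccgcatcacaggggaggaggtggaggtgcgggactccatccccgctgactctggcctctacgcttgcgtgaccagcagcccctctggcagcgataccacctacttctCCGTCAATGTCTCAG
circTcf25: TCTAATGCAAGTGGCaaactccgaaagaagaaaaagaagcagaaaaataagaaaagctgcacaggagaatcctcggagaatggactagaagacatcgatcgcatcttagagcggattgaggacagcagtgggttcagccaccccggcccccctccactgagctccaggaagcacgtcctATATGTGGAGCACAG

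The nuclear libraries were small. They held 2189 and 2635 junction reads on 1001 and 957 circRNAs, and the cytoplasmic libraries 77818 and 81941 junction reads on 8870 and 8909 circRNAs, 33.1 times as many reads in all. A level is therefore given as junction reads per 10000 junction reads of the library, which is a share of the fraction and not a number of molecules per cell. Fewer rings per nucleus and a smaller yield of nuclear RNA cannot be told apart in these counts. Of the nuclear circRNAs, 822 of 1136 were listed in both replicates, and of the cytoplasmic ones 8301 of 9478. The replicates of a fraction differed less than counting error for circRNAs of 3 to 20 reads, with a mean chi-square of 0.731 per circRNA in the nucleus and 0.603 in the cytoplasm, where counting error alone gives about 1. They differed more above 100 reads, where the mean chi-square of 126 cytoplasmic circRNAs was 13.4, so they were kept as separate replicates. In the 6 mRNA-seq libraries of the cell line, 8 of 8 fibroblast markers exceeded a CPM of 1 (read count scaled to the library total), and their sum was between 20260.3 and 23629.3 CPM. Among 7 blood cell markers only Ptprc exceeded 1 CPM in each library, at 1.24 to 5.43 CPM, and no epithelial marker of 5 did. Xpo4 stood at 31.1 to 33 CPM in WT and 28.1 to 40.5 CPM in KO, so its RNA level does not check the genotype labels.

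The nucleus listed fewer kinds of circRNA than the cytoplasm, and a large part of its reads came from rings that do not begin and end at exon edges. Both ends lay on annotated exon edges of 1 gene for 61.1% and 54.7% of nuclear junction reads, and for 99.7% and 99.8% of cytoplasmic ones. The means were 57.9% ± 4.55 and 99.8% ± 0.0126 (SD, n = 2), and the ranges did not overlap. Expected at an equal depth of 2189 reads, the number of distinct circRNAs was 1001 and 890 in the nucleus against 1561.5 and 1643.8 in the cytoplasm. The exonic circRNAs of the nucleus were also shorter. Their median spliced length, the sum of the annotated exons inside the ring, was 393 and 399 nt, against 497 nt in both cytoplasmic libraries, a difference of -101 nt. Weighted by reads, the medians were 370 and 376 nt in the nucleus and 491 and 493 nt in the cytoplasm. The nuclear circRNAs had a median of 3 exons and the cytoplasmic ones of 4, and 11.2% of the nuclear exonic circRNAs were single exons in each replicate, against 4.12% and 4.14% in the cytoplasm. The exons inside the rings had a median GC content of 49.5% and 49.7% in the nucleus and 48.1% in both cytoplasmic libraries. For the exon-edge share, the number at equal depth and the length, exact permutation of the library labels (two-sided) gave p = 0.333 each, the smallest that 2 against 2 libraries allow.

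**Figure D1:**
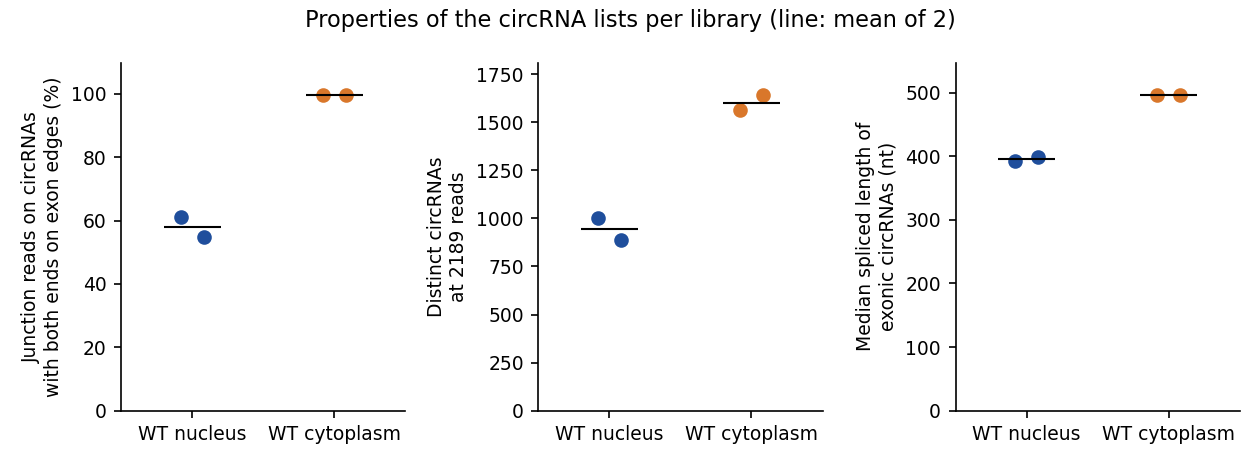
Each point is 1 library, with nucleus in blue and cytoplasm in orange, and the line is the mean of 2. The panels plot the percentage of junction reads on circRNAs with both ends on exon edges, the number of distinct circRNAs expected at 2189 reads, and the median spliced length in nt. The nuclear points lie below the cytoplasmic points in all 3 panels.

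Nuclear and cytoplasmic lists shared 456 circRNAs, which is 40.1% of the nuclear and 4.81% of the cytoplasmic circRNAs. These shared circRNAs took 46.7% and 41.9% of the nuclear and 23% and 18.9% of the cytoplasmic reads. Of them, 454 had both ends on exon edges, with a median length of 404 nt (quartiles 318 and 600). A further 201 exonic circRNAs were listed in the nucleus without a cytoplasmic read, with a median of 370 nt (265 and 564), and 8989 in the cytoplasm without a nuclear read, with a median of 499 nt (364 and 744). Absence from the nuclear lists is weak evidence at this depth, because 3 nuclear reads, the limit that a count of 0 allows, correspond to 6.22 reads per 10000, while 3 cytoplasmic reads correspond to 0.188.

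Of the 1136 nuclear rings, 655 were exonic, 42 had 1 end on an exon edge (83 and 115 reads), 7 were listed at more than 1 position, and 432 had neither end on an exon edge. The rings with neither end on an edge held 755 and 1044 reads, 34.5% and 39.6% of the nuclear libraries, and 327 of the 432 were listed in both replicates. None of them had a read among 159759 cytoplasmic or 112889 whole-cell junction reads, which allows each up to 0.188 and 0.266 reads per 10000 if an absent ring is a count of 0. Of the 680 WT circRNAs in the nuclear but not the cytoplasmic lists, 665 were in a KO nuclear list and 5 in a KO cytoplasmic list. Of the 9022 in the cytoplasmic but not the nuclear lists, 11 (0.122%) were in a KO nuclear list and 8799 in a KO cytoplasmic list. The filters behind the lists are not given, and 98.4% of all WT nuclear circRNAs were in a KO nuclear list, so whether rings were left out of the lists of a fraction was not tested. The limits and bounds on absent rings hold only where none were. In the KO cells, 420 of the 432 were in a nuclear list and none in a cytoplasmic list. They were small, with a median of 230 bases between the ends (quartiles 184 and 408), against 4977 bases for nuclear and 7873 bases for cytoplasmic exonic circRNAs. Spans in all lists used ran from 150 to 99947 bases. Both ends lay in introns for 228 of them (52.8%), between genes for 131 (30.3%) and in exons for 45 (10.4%). In 13 of them (3.01%) an end came within 10 bases of an exon edge. The flanking bases read AG before and GT after the ring, or the reverse complement, for 432 of 432, as for each exonic circRNA, and find_circ searches for these bases. Of the off-edge rings, 282 lay inside 1 gene. These signals were on the strand of the gene in 120 of them (42.6%) and on the opposite strand in 162 (57.4%). They were on the strand of the host in 9644 of 9644 exonic circRNAs, which follows from the definition of that class by exon edges of 1 gene. Sequence marked as repeat made up over 50% of the ring in 25 of the 432 (5.79%), against 13 of 655 nuclear exonic circRNAs (1.98%). The bases at both ends matched over at least 10 positions in 21 of the 432 (4.86%) and in none of the 655.

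**Figure D2:**
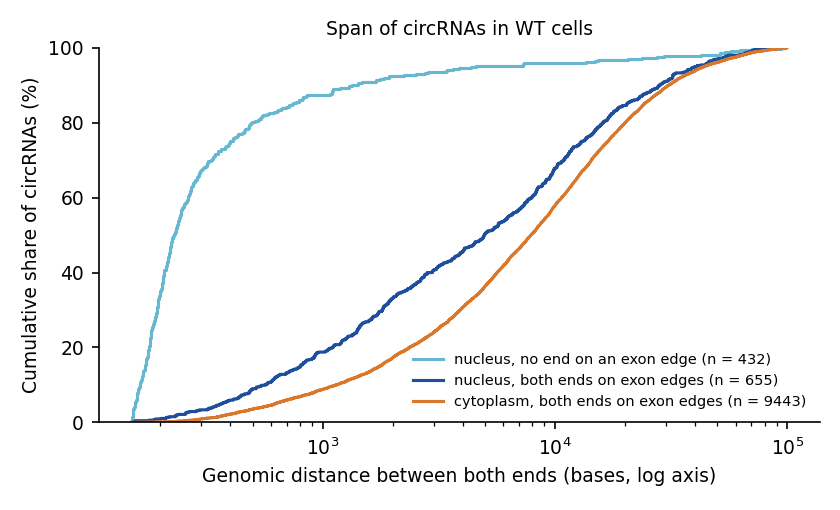
Cumulative share of circRNAs, in percent, by the genomic distance between both ends in bases on a log axis. The 432 nuclear rings without an end on an exon edge (light blue) have a median of 230 bases, far below the nuclear (dark blue, 4977) and cytoplasmic (orange, 7873) exonic circRNAs.

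Next, the shares of single circRNAs were compared with edgeR's quasi-likelihood test on counts scaled by the total of junction reads. Of 5373 circRNAs with at least 10 reads over the 4 libraries, 110 were higher in the nucleus (2.05%) and 17 higher in the cytoplasm (0.316%) at an adjusted p under 0.05. Of the 110, 87 were exonic, 3 had 1 end and 18 no end on an exon edge, and 2 were rows listed at more than 1 position. All 17 that were higher in the cytoplasm were exonic. Exonic circRNAs made up 5337 of those tested, of which 1.63% were higher in the nucleus and 0.319% in the cytoplasm. By an unadjusted p under 0.05 with log2(Nuc/Cyto) over 0.3 or under -0.3, the numbers were 192 (3.57%) and 147 (2.74%). A circRNA without nuclear reads was called only with at least 191 cytoplasmic reads, which 15 of 4938 had, and those with up to 176 were not called. At this nuclear depth, a lower nuclear share was not detectable for most circRNAs.

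Both numbers depend on the scale and on the spread. The nuclear and cytoplasmic calls were 35 and 13 with TMM, 38 and 17 with TMMwsp, 41 and 114 with DESeq2 and its size factors, and 13 and 3849 on raw counts without scaling. Against scaling by totals, these moved the median log2(Nuc/Cyto) of the 404 tested circRNAs with reads in both fractions by -2.00, -1.86, -1.92 and -4.93. Without nuclear replicate 1 there were 39 and 3 calls, without nuclear replicate 2 there were 27 and 2, and without cytoplasmic replicate 1 the cytoplasmic calls were 9. In the test as reported, edgeR took the spread of each circRNA from a trend over abundance, and none had a spread of its own (infinite prior degrees of freedom). In a fit added after seeing the data, over the 3217 circRNAs that were also in a WT whole-cell list, prior degrees of freedom were 2.01 and no circRNA passed in edgeR (163 higher in the nucleus and 43 in the cytoplasm at an unadjusted p under 0.05). Of the circRNAs named below and tested there, circMapk1 alone changed direction in that fit, to a log2 of 0.51.

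**Figure D3:**
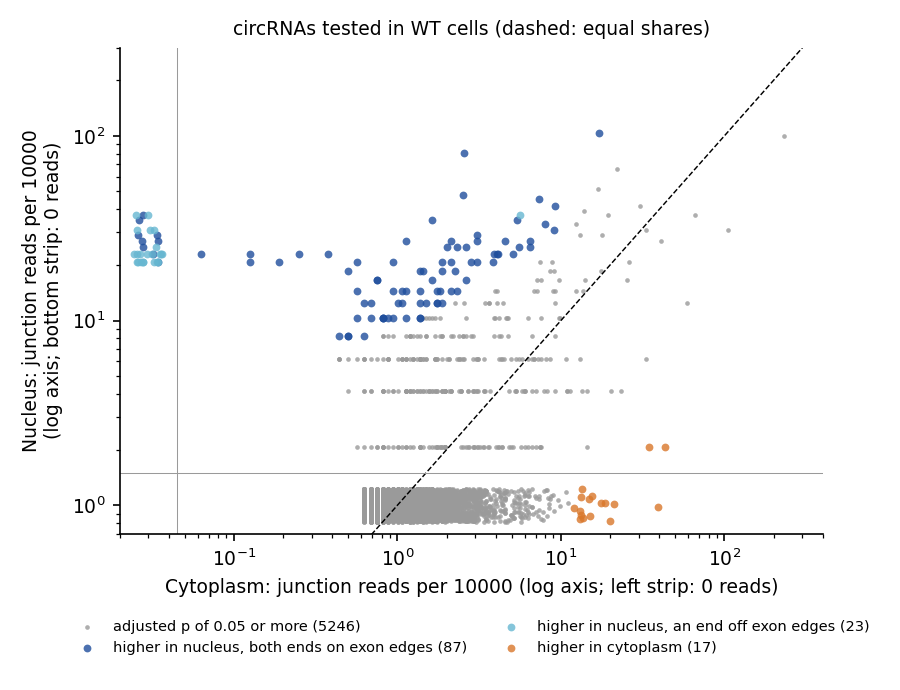
Each point is 1 of 5373 tested circRNAs, with the cytoplasmic level on the x axis and the nuclear level on the y axis, both in junction reads per 10000 over the 2 replicates on log axes, and circRNAs without reads in strips at the edges. The 87 exonic (dark blue) and 23 other (light blue) circRNAs higher in the nucleus lie above the dashed line of equal shares, and the 17 higher in the cytoplasm (orange) lie below it, most of them in the strip without nuclear reads.

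The 8 exonic circRNAs with most nuclear reads among those higher in the nucleus came from Fgfr1, Tcf25, Slc30a7, Med13l, Zfp292, Sh3rf3, Klf7 and Tead1. Their reads per library are given in the order of the replicates. circFgfr1, from the gene of a fibroblast growth factor receptor, had 29 and 21 nuclear reads and 109 and 163 cytoplasmic reads. This is a level of 106 ± 37.3 per 10000 in the nucleus and 16.9 ± 4.16 in the cytoplasm (SD, n = 2). Ratios here and below are taken from the reads summed over both replicates of a fraction, not from the mean levels. The Nuc/Cyto ratio of circFgfr1 was 6.09 (95% exact counting interval 4.41 to 8.26). In edgeR its log2(Nuc/Cyto) was 2.64 ± 0.804 (SE) with an adjusted p of 0.0445, the least certain of these calls. circTcf25, whose host encodes a component of ribosome-associated quality control, had 20 and 19 nuclear reads and 14 and 27 cytoplasmic reads. Its ratio was 31.5 (19.8 to 50.1), with a log2 of 4.98 ± 0.574 and an adjusted p of 1.01e-15 in edgeR. Its raw reads were about as many in the nuclear libraries as in the far deeper cytoplasmic ones.

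circSlc30a7, exons 6 to 8 of a zinc transporter gene at chr3:115978644-115984974, had 13 and 10 nuclear and 16 and 24 cytoplasmic reads, a ratio of 19 (10.9 to 32.6). circTead1, exon 2 of a transcription factor gene of the Hippo pathway at chr7:112759384-112759639, had 9 and 8 nuclear and 19 and 7 cytoplasmic reads, a ratio of 21.7 (11 to 41.5). Both passed edgeR with adjusted p of 6.67e-16 and 2.01e-13. circKlf7, exon 3 of a Krüppel-like transcription factor gene at chr1:64078707-64079334, had 10 and 7 nuclear and 42 and 44 cytoplasmic reads, a ratio of 6.55 (3.65 to 11.1). circMed13l, exon 2 of a Mediator subunit gene at chr5:118593333-118593570, had 11 and 11 nuclear and 79 and 39 cytoplasmic reads, a ratio of 6.17 (3.73 to 9.79). circZfp292, exons 2 to 4 of a zinc finger gene at chr4:34839332-34839986, had 10 and 10 nuclear and 98 and 50 cytoplasmic reads, a ratio of 4.48 (2.66 to 7.16). For these 3 the edgeR adjusted p was 3.81e-06, 5.07e-05 and 0.00376. The cytoplasmic reads of circMed13l and circZfp292 differed between replicates, yet each nuclear level exceeded both cytoplasmic levels. Without scaling the log2 of circFgfr1, circTcf25, circSlc30a7, circTead1, circKlf7, circMed13l and circZfp292 was below 0. With TMM it was above 0, from 0.11 for circZfp292 to 2.97 for circTcf25, but none of the 7 passed (edgeR adjusted p of 0.061 to 0.853). With TMMwsp circTcf25 alone passed, and with DESeq2 circTcf25 and circSlc30a7 did. The circFgfr1 call was also lost without cytoplasmic replicate 1 or 2 (edgeR adjusted p = 0.383 and 0.246), that of circKlf7 without nuclear replicate 1 (0.104), and that of circZfp292 without cytoplasmic replicate 2 (0.147) and without the filter (0.0526).

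circSh3rf3, from an SH3 domain ubiquitin ligase gene, was listed with 9 reads in each nuclear library and none in the cytoplasm. Against the limit of 3 reads over both cytoplasmic libraries, its nuclear level was at least 199-fold higher, if its absence from the lists is a count of 0. A circRNA without cytoplasmic reads reaches the minimum of 10 reads through the nuclear libraries alone, and 31 of 31 such circRNAs tested were called, so the test adds no support to this difference. The whole-cell libraries held 0 and 1 reads of it. Of the 87 exonic circRNAs higher in the nucleus, 9 had no cytoplasmic read and 78 had reads in both fractions.

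The 87 exonic nuclear calls had a median spliced length of 323 nt (quartiles 273 and 473, 85 with a length), 12 were single exons, and they came from 84 host genes. Of these hosts, 70 (83.3%) had another circRNA in the cytoplasm lists, with a median of 3 and up to 19. The same share over all host genes was not computed, so nothing particular to these hosts is shown. None had one circRNA higher in the nucleus and another higher in the cytoplasm, but with only 17 circRNAs higher in the cytoplasm such a host could hardly be seen. Pairs of rings from 1 gene, chosen after their values were seen, show how far the fractions can differ within a host. The Tasp1 ring of exons 2 to 4 had 3 and 10 nuclear reads and none in the cytoplasm, whereas that of exons 2 to 5, which begins at the same acceptor, had 4 and 8 nuclear and 50 and 54 cytoplasmic reads. The longer ring was higher in the nucleus (edgeR adjusted p = 0.0107), and for the shorter one, as for circSh3rf3, the test adds no support. The Cacna1c ring of exons 4 to 5 had 6 and 5 nuclear and 40 and 25 cytoplasmic reads and was higher in the nucleus (edgeR adjusted p = 0.00113). That of exons 2 to 3 in the same calcium channel gene had 10 and 8 nuclear and 528 and 528 cytoplasmic reads, a log2(Nuc/Cyto) of -0.81 with an edgeR adjusted p of 0.449. The difference within a host was not tested.

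The 8 circRNAs with most cytoplasmic reads among those higher in the cytoplasm were circVapa, circDtnb, circRasa2, circRabep1, circTent4a, circUck2, circAlg12 and circNfkb1. circVapa, exons 2 to 4 of a gene for a tethering protein of the endoplasmic reticulum at chr17:65592291-65595054, had 348 reads in each cytoplasmic library and 1 and 0 in the nucleus. Its level was 43.6 ± 1.59 per 10000 in the cytoplasm against 2.28 ± 3.23 in the nucleus (SD, n = 2). From the summed reads, the ratio of cytoplasm to nucleus was 21, with a wide counting interval of 3.76 to 831. circRasa2, exons 2 to 5 of a Ras GTPase-activating protein gene at chr9:96591950-96611499, had 303 and 253 cytoplasmic reads and 1 and 0 nuclear reads, a ratio of 16.8 (3 to 664). The edgeR adjusted p was 0.0286 and 0.0269, and both calls were lost without nuclear replicate 2 (0.108 and 0.229) or cytoplasmic replicate 1 (0.0548 and 0.073), and among exonic circRNAs alone (0.115 and 0.14). A shorter Rasa2 ring of exons 2 to 4 had 3 and 5 nuclear and 186 and 220 cytoplasmic reads and did not pass (log2 -0.62, edgeR adjusted p = 0.449). circDtnb, from a dystrobrevin gene, had 313 and 312 cytoplasmic reads and no nuclear read. By the lower end of the exact counting interval, its cytoplasmic level was at least 5.1-fold higher (edgeR adjusted p = 0.00263).

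For the other 5, all without nuclear reads, the lower end of the same counting interval was smaller. circRabep1, from a gene for a Rab5 effector of endosomes, had 177 and 160 cytoplasmic reads, at least 2.74-fold higher. circTent4a, from a poly(A) polymerase gene, had 214 and 105, at least 2.6-fold higher. circUck2, from a uridine-cytidine kinase gene, had 154 and 145, at least 2.43-fold higher. For circAlg12, from a mannosyltransferase gene of N-glycosylation, the reads were 156 and 124, with a bound of 2.28. For circNfkb1, from an NF-kappa-B subunit gene, they were 111 and 137, with a bound of 2.01. Their edgeR adjusted p lay between 0.00134 and 0.00678, and all 5 calls were lost without nuclear replicate 1 (0.0988 to 0.317) or nuclear replicate 2 (0.226 to 0.607). Among exonic circRNAs alone, the calls of circUck2, circAlg12 and circNfkb1 were lost (edgeR adjusted p = 0.0523, 0.071 and 0.119). The circTent4a call was also lost with TMM (edgeR adjusted p = 0.0715), with TMMwsp (0.0516) and without the filter (0.0647). The 17 cytoplasmic calls had a median length of 484 nt, near the 495 nt of all cytoplasmic exonic circRNAs. Of them, 17 of 17 were in a WT whole-cell list, as were 97.6% of all cytoplasmic circRNAs above 100 reads, so this is not particular to the calls.

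**Figure D4:**
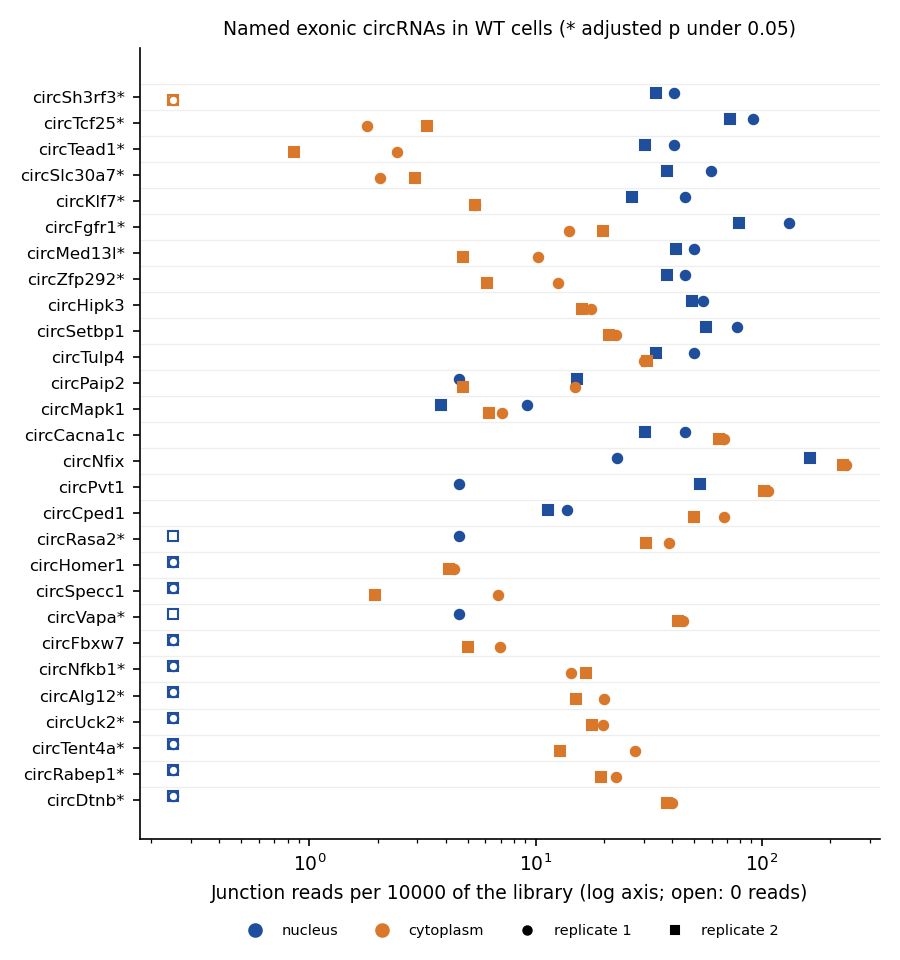
Junction reads per 10000 of the library, on a log axis, of the named exonic circRNAs tested, with nucleus in blue, cytoplasm in orange, replicate 1 as circles and replicate 2 as squares, and open symbols for 0 reads. From circSh3rf3 to circZfp292 both nuclear levels exceed both cytoplasmic ones, and circNfix and circPvt1 show the widest gap between nuclear replicates (5 and 43 reads, 1 and 14 reads).

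The most abundant circRNA of the cytoplasm, circNfix, was also among the 5 with most nuclear reads. It is exon 2 of a nuclear factor I gene at chr8:84771784-84772315 and was one of the hosts imaged by the study. It had 1837 and 1871 cytoplasmic reads, and its nuclear reads differed between replicates, at 5 and 43. Its level was 93 ± 99.2 per 10000 in the nucleus and 232 ± 5.46 in the cytoplasm (SD, n = 2), with a log2(Nuc/Cyto) of -1.30 ± 2.03 (SE) and an edgeR adjusted p of 0.531. In the WT whole-cell libraries it had only 2 and 0 reads. circPvt1, exon 2 of the long noncoding RNA next to Myc, at chr15:62107148-62107465, had 834 and 838 cytoplasmic reads, 1 and 14 nuclear reads, and 1 and 2 whole-cell reads (log2 -1.81 ± 1.31, edgeR adjusted p = 0.449). circCacna1c, above, and circCped1, with 3 and 3 nuclear and 529 and 410 cytoplasmic reads (log2 -2.24, edgeR adjusted p = 0.449), had 209 and 212 and 173 and 187 whole-cell reads. With circVapa, these were the 5 circRNAs with most cytoplasmic reads. Other scalings called them higher in the cytoplasm. circCacna1c and circCped1 passed with TMM (edgeR adjusted p = 0.0321 and 0.0149), TMMwsp, DESeq2 (0.00488 and 0.00046) and no scaling, and circNfix and circPvt1 with DESeq2 (0.00323 and 0.000779) and no scaling.

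circHipk3, the ring of exon 2 of a homeodomain-interacting kinase gene and one of the best-studied circRNAs, had 12 and 13 nuclear reads and 137 and 132 cytoplasmic reads. The Nuc/Cyto ratio was 3.08 (counting interval 1.96 to 4.64), and it did not pass edgeR (log2 1.62 ± 0.636, adjusted p = 0.299). This log2 is near the median of 1.45 over the 404 tested circRNAs with reads in both fractions. Such a ratio is therefore not particular to circHipk3. circHipk3 passed among exonic circRNAs alone (log2 2.41, edgeR adjusted p = 0.00607) and without the filter (0.0262). Scaled by TMM, its log2 was -0.40. circSetbp1, exon 2 of a gene for a SET-binding protein, was alike, with 17 and 15 nuclear and 177 and 174 cytoplasmic reads, a ratio of 3.02 (2.03 to 4.34) and an adjusted p of 0.449 in edgeR. It also passed among exonic circRNAs alone (0.0347) and without the filter (0.0231). Its log2 under TMM was -0.43, and both rings were also below 0 with TMMwsp, with DESeq2 and without scaling. Of the other hosts imaged by the study, circSpecc1 had no nuclear reads beside 53 and 16 in the cytoplasm, and circWwc1 had no nuclear read beside 3 and 0 in the cytoplasm. Their nuclear limits lie above their cytoplasmic levels, so no ratio can be given. No circRNA of Adarb1 was listed. Among hosts of well-studied circRNAs with at least 50 reads, circTulp4 had 11 and 9 nuclear and 235 and 255 cytoplasmic reads (ratio 1.35, 0.818 to 2.11), and circMapk1 had 2 and 1 and 55 and 51 (ratio 0.937, 0.19 to 2.81). circHomer1 and circFbxw7 had no nuclear reads and 34 and 34, and 54 and 41, cytoplasmic reads. Of the hosts of exon-intron circRNAs, Eif3j1 and Eif3j2 had none listed, and circPaip2, exons 2 to 3, had 1 and 4 nuclear and 117 and 39 cytoplasmic reads (ratio 1.06, 0.34 to 2.53). The log2 of circTulp4 and circPaip2 fell below 0 in the same 4 scalings. None of these circRNAs passed the test as reported.

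Off the exon edges, the rule named 5 rows, of which 2 repeated other rows. Their signals were few reads in small libraries. The ring in a Csmd3 intron had 3 and 12 nuclear reads and none in the cytoplasm, at least 166-fold higher if its absence is a count of 0. All 18 tested rings without an end on an exon edge reached the minimum of 10 reads through nuclear reads alone and all were called, so the test adds no support here either. Csmd3 is a gene known for its expression in the nervous system, and the splice signals of the ring lie on the strand opposite to the gene. A ring on chromosome 1, chr1:173912814-173977437, joins Ifi202b and the overlapping Mndal and Ifi211, interferon-inducible genes of 1 tandem family, so that reads from related copies may be placed there. It had 2 and 16 nuclear reads, none in the cytoplasm and 21 and 22 in whole cells. A second row with 2 alternative end positions carried the same 2 and 16 reads. Likewise a row with 2 alternative start positions on chromosome 14 carried the 3 and 12 nuclear reads of the exonic circRNA of Kat6b, a histone acetyltransferase gene, which had 340 and 189 cytoplasmic reads and did not pass (edgeR adjusted p = 0.861). The WT nuclear lists held 7 such rows and the WT cytoplasmic lists none. Raet1e, also of a family of related genes, had a ring with 1 end on an exon edge, 10 and 8 nuclear and 45 and 45 cytoplasmic reads, and a ratio of 6.62 (3.76 to 11.1, edgeR adjusted p = 3.81e-06), a call that was lost with TMM (log2 0.71, edgeR adjusted p = 0.192), TMMwsp and DESeq2, and its log2 was below 0 without scaling.

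Host genes were also grouped by function, and the exonic circRNAs of each group were counted against the 1.63% higher in the nucleus among all exonic circRNAs tested. Of 42 transcription factors of fibroblasts and their cofactors, 31 had circRNAs, and 3 of 56 tested were higher in the nucleus (5.36%), from Bnc2, Tead1 and Zeb1. The Bnc2 ring had 5 and 6 nuclear and 2 and 2 cytoplasmic reads, and the Zeb1 ring 6 and 5 and 33 and 33. Of 60 chromatin regulators, 51 had circRNAs and 2 of 150 tested were higher in the nucleus (1.33%), from Ezh2, the methyltransferase of Polycomb, and Mllt10. Of 55 adhesion, matrix and actin genes, 46 had circRNAs and 2 of 105 were higher (1.9%), from Ptk2, the focal adhesion kinase, and Tns3. Of 48 ubiquitin ligases, 42 had circRNAs and 1 of 111 was higher (0.901%), from Cblb. Of 30 hosts of well-studied circRNAs, 22 had any, and 2 of 66 were higher (3.03%), from Rhobtb3 and Stau2. None of the circRNAs in these groups, or of those imaged by the study (9 tested) and of the exon-intron hosts (1 tested), was higher in the cytoplasm. Chromatin regulators took 3.51% and 4.3% of the exonic reads in the nucleus against 3.37% and 2.9% in the cytoplasm. Ubiquitin ligases took 0.747% and 1.39% of the nuclear against 1.67% and 1.66% of the cytoplasmic exonic reads. With 1 to 3 calls a group, nothing particular to a group is shown.

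The whole-cell lists held the circRNAs of both fractions unequally. Of the 454 exonic circRNAs shared by nucleus and cytoplasm, 89.9% were in a WT whole-cell list, against 34.3% of the 201 listed in the nucleus without a cytoplasmic read and none of the 432 off-edge rings. In the KO nuclear lists these shares were 99.3%, 99.5% and 97.2%. Of the cytoplasmic circRNAs, 50.6% had no whole-cell read. This share was 58.2% for those of 1 to 20 cytoplasmic reads, 30.1% for 21 to 40, 6.68% for 41 to 100 and 2.38% above 100. circNfix, with the most cytoplasmic reads, had 2 and 0 whole-cell reads. Of the 87 exonic nuclear calls, the whole-cell level was below the nuclear level in 86 and above the cytoplasmic level in 47. Their median level was 20.7 per 10000 in the nucleus, against 1.38 in cytoplasmic and 1.33 in whole-cell libraries. The 87 were picked for a nuclear level above the cytoplasmic one, so the gap between those 2 levels was fixed by the choice. A high nuclear level was part of that choice too, and the same counts over all exonic circRNAs were not made, so the whole-cell comparison shows nothing particular to the calls. The Bnc2 ring stood apart, with 220 and 183 whole-cell reads beside 2 and 2 in the cytoplasm.

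**Figure D5:**
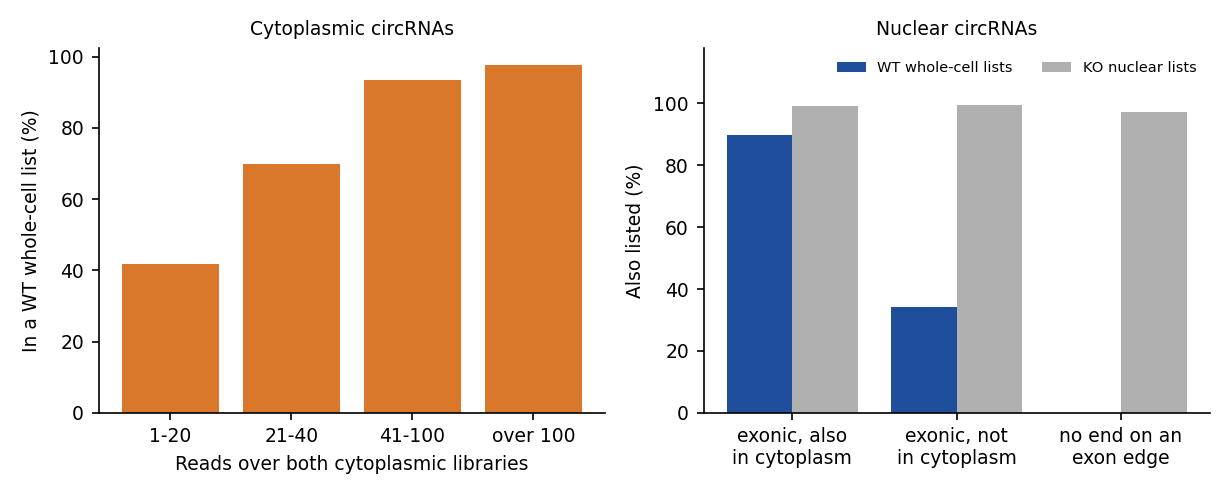
Left, the percentage of WT cytoplasmic circRNAs that are also in a WT whole-cell list, by their reads over both cytoplasmic libraries, rising from 41.8% at 1 to 20 reads to 97.6% above 100. Right, the percentage of 3 classes of WT nuclear circRNAs that are also in WT whole-cell lists (blue) and in KO nuclear lists (grey), where the rings without an end on an exon edge are at 0% and 97.2%.

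Whether the WT ratios differ from those in KO cells was tested as an interaction over 8 libraries. Counts were again scaled by the library totals, so ratios of shares were compared. A change in KO that is common to all circRNAs of a fraction could not be seen by this test. Of 9266 circRNAs tested, none had a higher ratio in KO and 4 a lower one (0.0432%) by edgeR at an adjusted p under 0.05, with 84 and 42 at an unadjusted p under 0.05, and none higher in KO by DESeq2. Without KO cytoplasmic replicate 1 there were 8 higher and 9 lower ratios, without KO cytoplasmic replicate 2 there were 5 and 7, and with TMM there were none of either. The lower ratios were 0 without WT nuclear replicate 2, either WT cytoplasmic or either KO nuclear library. Of the 110 nuclear calls in WT, 106 had nuclear reads in KO, as had 98.4% of all WT nuclear circRNAs, so this is not particular to the calls. In edgeR, 2 of the 110 had an interaction with an adjusted p under 0.05, and 22 with an unadjusted p under 0.05. The 110 were picked for a high ratio in the same WT counts, which favours a lower ratio in KO, so these 2 numbers show nothing particular to the calls. circTcf25 had 3 and 27 nuclear reads in KO with 11 and 8 in the cytoplasm, and circFgfr1 16 and 12 with 64 and 48. Their interaction log2 values were -0.63 and -0.85, each with an adjusted p of 1 in edgeR, which does not show that the ratios are alike.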

How the data were processed

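The circRNA-seq libraries of WT NIH/3T3 nuclei and cytoplasm were compared, 2 each. The authors trimmed reads with cutadapt, ran find_circ, and deposited 1 list per library, which holds mm10 (GRCm38) positions and raw counts of junction reads. TPM is named in their methods, yet the lists hold whole counts. The filters before deposition are not given in the sources used here. The lists were joined by chromosome, start and end, and an absent circRNA was entered as 0. Both ends were placed on exon edges of GENCODE release 21 of mouse (vM21), and genome sequence came from the RefSeq copy of GRCm38. Counts of 2189 to 81941 junction reads per library set the precision, intervals and limits from counts cover counting error only, and the limit for a count of 0 was 3 counts over a group.

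edgeR 4.0.16 (R 4.3.3; glmQLFit, glmQLFTest) tested circRNAs with at least 10 reads over a fit's libraries, scaled by the library total of junction reads, with p-values adjusted by Benjamini-Hochberg and called under 0.05, and was first tested on simulated counts. TMM, TMMwsp, no scaling, DESeq2 1.42.0, no filter, exonic circRNAs alone, a replicate block and leaving out each library were alternatives. Library properties were compared by two-sided exact permutation tests. The mRNA-seq values are deposited counts per gene from HISAT2 and featureCounts, used for markers. The heading inside those files names the other genotype, and the titles were followed.

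The circRNAs named were the most abundant ring of each host imaged by the study, of well-studied hosts with at least 50 reads and of exon-intron hosts; among calls without overlap, the 8 exonic and 5 off-edge ones with most nuclear reads and the 8 with most cytoplasmic reads; and the 5 with most reads in each fraction. Others are said to be chosen after their values were seen, or stand as members of a counted list. Members and lists were chosen with earlier results of these data known. The labels give no batch, the KO whole-cell libraries were not used here, and the extraction protocol in the labels speaks of blood although the samples are a cell line. One result that names a withheld item is not reported here.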

Additional observations from a re-analysis of the deposited data

Results flagged for a closer look

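A different Nuc/Cyto ratio between WT and KO was found for 4 circRNAs by the interaction test in edgeR, each with a lower ratio in KO. The Spata5 ring had in WT 3 and 5 reads in the nucleus and 0 and 1 in the cytoplasm, and in KO 1 and 2 in the nucleus and 15 and 15 in the cytoplasm, a log2 difference of -6.94 (adjusted p = 0.00515). The Bnc2 ring was listed in WT with 5 and 6 reads in the nucleus and 2 and 2 in the cytoplasm, and in KO 4 and 11 in the nucleus and 139 and 256 in the cytoplasm, a log2 difference of -7.23 (edgeR adjusted p = 0.00515). The WT whole-cell libraries held 220 and 183 reads of it. The chromosome 1 ring of the Ifi202b, Mndal and Ifi211 genes had 2 and 16 nuclear and no cytoplasmic reads in WT, and in KO 9 and 8 in the nucleus and 7 and 24 in the cytoplasm, a log2 difference of -7.02 (edgeR adjusted p = 0.0267). The Myo10 ring had in WT 3 and 3 reads in the nucleus and 1 and 0 in the cytoplasm, and in KO 1 and 2 in the nucleus and 8 and 11 in the cytoplasm, a log2 difference of -5.87 (edgeR adjusted p = 0.0386). In all 4 the change lay mainly in the cytoplasmic reads, and the fitted values rest on few or no WT cytoplasmic reads. Leaving out any library other than WT nuclear replicate 1, with which left out 4 were again called, changed this number to 0 (without WT nuclear replicate 2, either WT cytoplasmic or either KO nuclear library), 9 (without KO cytoplasmic replicate 1) or 7 (without KO cytoplasmic replicate 2).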

How the results depend on the processing

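Against 110 nuclear and 17 cytoplasmic calls, there were 35 and 13 with TMM, 38 and 17 with TMMwsp, 13 and 3849 without scaling, 41 and 114 with DESeq2, 601 and 12 without the filter, 126 and 3 for exonic circRNAs alone, 192 and 147 by the unadjusted rule, and 0 and 0 for circRNAs also in whole-cell lists, an alternative added after seeing the data. Leaving out 1 library gave 27 to 105 nuclear and 2 to 24 cytoplasmic calls. The difference in circRNAs at equal depth, -657, was -205 at 1000 reads, -515 for exonic circRNAs and -746 with at least 2 reads (-712 to -602 without 1 library). The difference in length, -101 nt, was -119 weighted by reads, -117 with at least 2 reads and -3013.5 bases by span (-104 to -98 without 1 library), and that in exon-edge reads, -41.8 points, was -45.1 to -38.6 without 1 library. Lower ratios in KO, 4 as reported, numbered 0 with TMM, 0 without scaling, 1 with DESeq2 and 2 without the filter, and 0 to 9 without 1 library, with 0 to 8 higher ones.

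Replicates of the same number did not deviate together (correlation 0.0208), so the number does not pair them. With a replicate block there were 99 nuclear and 16 cytoplasmic calls, and 2 lower ratios in KO, and circHipk3 passed (edgeR adjusted p = 0.0449).

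The log2(Nuc/Cyto) of these circRNAs changed sign. With TMM, TMMwsp, no scaling and DESeq2 it was -0.40, -0.26, -3.41 and -0.32 for circHipk3, -0.43, -0.29, -3.45 and -0.34 for circSetbp1, -1.58, -1.44, -4.60 and -1.50 for circTulp4, and -1.98, -1.82, -4.90 and -1.87 for circPaip2. Without scaling it was -2.44 for circFgfr1, -2.32 for circKlf7, -2.41 for circMed13l, -2.31 for circRaet1e, -0.79 for circSlc30a7, -0.07 for circTcf25, -0.61 for circTead1 and -2.87 for circZfp292. circMapk1 stood at 0.70 among exonic circRNAs, 0.51 among those in whole-cell lists, and from -0.80 to 0.46 without 1 library (0.00 without cytoplasmic replicate 1), and circPaip2 from -1.11 to 1.11 without 1 library (-0.54 without cytoplasmic replicate 2). The cause of these changes was not tested. Of the circRNAs tested, 91.9% had no nuclear read.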
